A study of Mus musculus with 24 samples.

Results

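The 9 genes listed here encode transcription factors known from cerebellar granule neurons, and they were followed through the cerebellum and striatum of mice with a knock-in huntingtin allele and of wild-type mice. Their probe sets were taken where the platform annotation gives the gene as the only symbol, which gave 16 probe sets for 8 of the 9 genes, of 45037 probe sets without controls. Neurod1, Zic1, Zic4 and Barhl1 had 2 probe sets each, Pax6 had 5, and Zic2, Barhl2 and En2 had 1 each. The 3 probe sets that name Etv1, an ETS domain factor, also name a second gene, so no value of Etv1 is given. The arrays came from 4 groups of 6: Q111 cerebellum, wild-type cerebellum, Q111 striatum and wild-type striatum. The Q111 mice were homozygous for the Hdh knock-in allele with an expanded CAG repeat (HdhQ111/HdhQ111), and the wild-type mice carried Hdh+/Hdh+, labelled Q7/Q7. The labels used here do not tie the cerebellum of a mouse to its striatum, and age is given as 3 to 10 weeks for every group. The replicates are labelled biological without naming separate mice, so a p-value here reflects only how far these samples scatter, and that scatter may be technical.

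Granule neurons are the small glutamatergic neurons of the cerebellar cortex and the most numerous neurons of the mammalian brain. Their progenitors arise from the rhombic lip, divide in the external granular layer after birth, and settle in the internal granular layer, where they receive mossy fibres and send parallel fibres to Purkinje cells. Neurod1 encodes a basic helix-loop-helix activator that mice need for granule neurons to differentiate and survive. Zic1, Zic2 and Zic4 encode zinc finger proteins of dorsal neural tissue, which is where cerebellar progenitors form. Pax6 encodes a paired domain and homeodomain factor of rhombic lip derivatives, Barhl1 and Barhl2 encode BarH-like homeodomain factors, and En2 encodes an Engrailed homeodomain factor that patterns the midbrain and hindbrain border. Outside the cerebellum, Neurod1 is known from hippocampal and cortical neurons, and Zic1 from septum, olfactory bulb and meninges.

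The sequences around the starts of Neurod1, Zic1, Zic4 and Pax6 are shown here because these genes were higher in cerebellum together and because Zic1 and Zic4 are neighbours in the genome. Each runs 5′ to 3′ on the gene's strand from 250 bases before to 50 bases after a RefSeq start (GRCm38.p6), and 7 of the 9 genes had at least 1 such sequence, 10 in all. Capitals mark matches, on either strand, to any of 5 motifs. The E-box, which helix-loop-helix proteins bind, was searched as CANNTG. The CCAAT box was searched as its own letters. The homeodomain core was searched as TAATTA. The cyclic AMP response element was searched as TGACGTCA. The core bound by ZIC proteins was searched as CAGCAGG. No motif's letters contain another's, and overlapping matches were each counted.
Neurod1, chr2:79456587-79456886, minus strand: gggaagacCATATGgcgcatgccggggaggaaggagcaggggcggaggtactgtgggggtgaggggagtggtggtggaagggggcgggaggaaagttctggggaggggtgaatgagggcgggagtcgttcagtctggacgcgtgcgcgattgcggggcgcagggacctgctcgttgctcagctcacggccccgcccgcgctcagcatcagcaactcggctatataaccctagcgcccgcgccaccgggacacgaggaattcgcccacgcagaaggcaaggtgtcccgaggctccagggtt
Zic1, chr9:91365719-91366018, minus strand: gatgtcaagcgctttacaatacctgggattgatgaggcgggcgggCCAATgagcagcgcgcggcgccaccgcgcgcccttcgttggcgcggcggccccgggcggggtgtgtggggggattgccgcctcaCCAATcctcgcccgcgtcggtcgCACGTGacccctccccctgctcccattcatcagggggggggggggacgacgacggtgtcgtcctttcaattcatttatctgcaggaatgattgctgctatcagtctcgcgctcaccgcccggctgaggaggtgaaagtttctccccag
Zic4, chr9:91368722-91369021, plus strand: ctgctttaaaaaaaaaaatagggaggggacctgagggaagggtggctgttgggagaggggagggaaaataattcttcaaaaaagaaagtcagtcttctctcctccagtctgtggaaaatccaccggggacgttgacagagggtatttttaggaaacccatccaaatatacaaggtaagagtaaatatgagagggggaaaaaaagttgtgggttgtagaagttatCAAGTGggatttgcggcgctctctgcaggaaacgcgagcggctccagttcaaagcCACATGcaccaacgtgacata
Pax6, the upstream of its 2 listed starts, chr2:105668646-105668945, plus strand: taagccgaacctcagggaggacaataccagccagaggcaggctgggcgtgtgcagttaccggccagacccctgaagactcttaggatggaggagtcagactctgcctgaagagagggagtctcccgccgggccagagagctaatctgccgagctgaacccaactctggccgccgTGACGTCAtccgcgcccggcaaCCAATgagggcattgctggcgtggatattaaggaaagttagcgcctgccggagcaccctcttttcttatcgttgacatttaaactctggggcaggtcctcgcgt

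Zic1 and Zic4 lie head to head on chromosome 9, with their starts 3204 bases apart and transcribed away from each other. In these windows Neurod1 held 1 E-box, Zic1 held 1 E-box and 2 CCAAT boxes, Zic4 held 2 E-boxes, and Pax6 held 1 CCAAT box and 1 cyclic AMP response element. The other listed Pax6 start, which is not printed, held 1 E-box and neither a CCAAT box nor a cyclic AMP response element. Of 32851 upstream sequences of this length, 72.3% held an E-box, 37.4% a CCAAT box, 1.79% a cyclic AMP response element, 5.29% the homeodomain core and 10.5% the ZIC core. The homeodomain core and the ZIC core were in none of the 4 printed windows. The G and C content was 66.7% for Neurod1, 65.3% for Zic1, 46.0% for Zic4 and 58.7% for this Pax6 start, against a median of 52.7% over all. The matches describe letters only.

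All values are GCRMA values read as log2 units, so a difference of 1 is a 2-fold change. A probe set was tested if its mean reached 4 in cerebellum or in striatum, and 11 of the 16 probe sets, for 7 genes, did so; both Barhl1 probe sets and 3 of 5 for Pax6 did not. Values under 4 were treated as near background. The lowest value of any array was between -0.77 and -0.66 in cerebellum and between 0.36 and 0.38 in striatum, and the sources used here do not say if all arrays were normalised jointly, which bears on every level set across the tissues. The tissue labels were met by their markers. Of 14 striatal projection neuron genes, 14 were lower in wild-type cerebellum than in wild-type striatum, for example the dopamine receptor gene Drd2 by a log2 difference of -9.42 (SE 0.18, adjusted p = 3.73e-23 in limma). Of 19 mature granule neuron genes, 18 were higher, led by the GABA receptor subunit gene Gabra6 (log2 difference 11.14) and the cerebellin genes Cbln3 (11.09) and Cbln1 (10.36). Over all genes, 41.6% were called higher in this comparison and 32.1% lower.

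**Figure D1:**
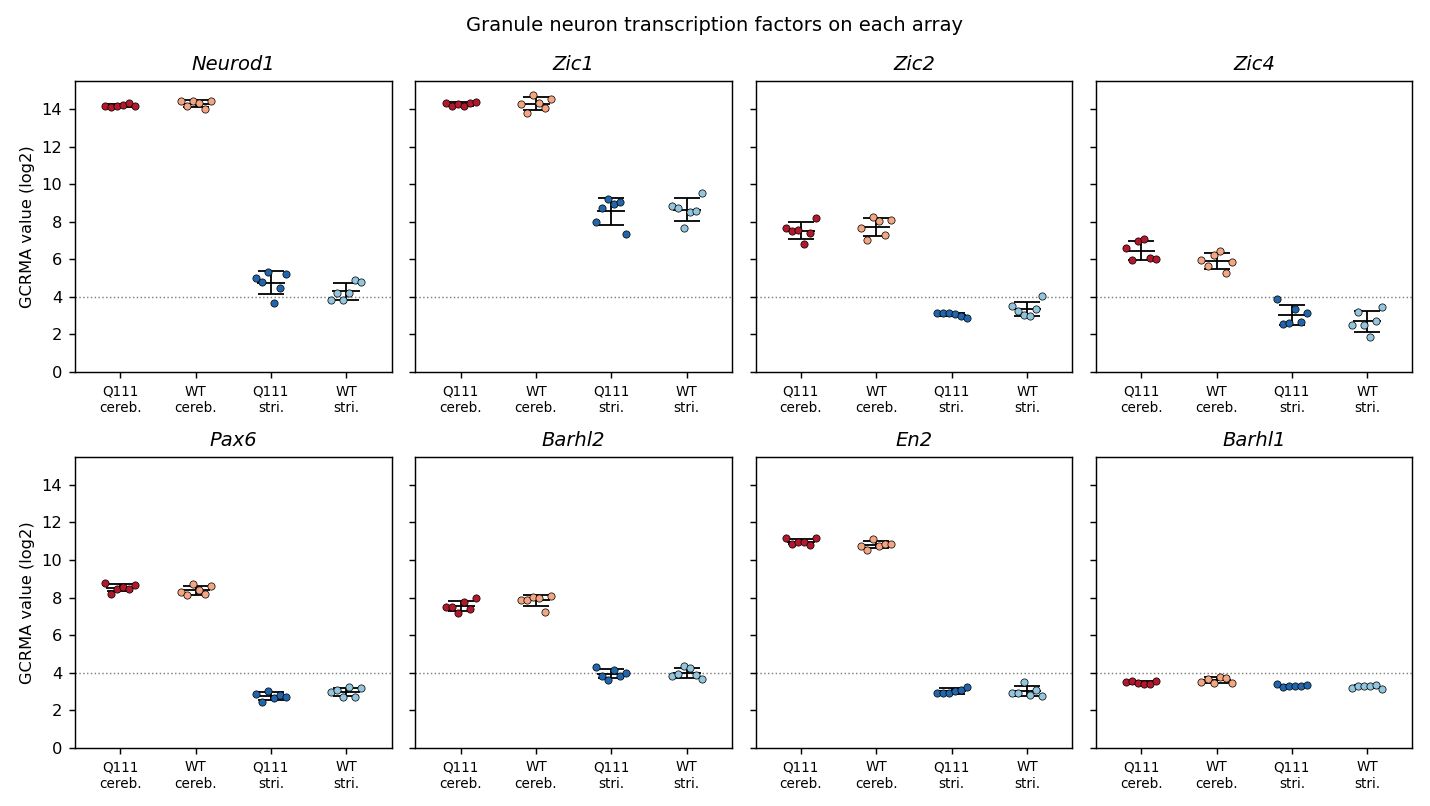
GCRMA values (log2, y axis) of the brightest probe set of each gene on all 24 arrays, with the 4 groups on the x axis; bars are means ± SD of 6 arrays and the dotted line is the value of 4. Neurod1 and Zic1 read about 14 on each cerebellum array, and Barhl1 stayed under 4 on each array.

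The comparison of the tissues asks how far these factors differ between the part of the brain where they are known to act and the part most affected by mutant huntingtin. In wild-type mice all 7 tested genes, and all 11 tested probe sets, were higher in cerebellum by limma at an adjusted p of 0.05, against 41.2% of all tested probe sets called higher there. In Q111 mice the same count was 11 of 11, against 40.1%. All tested probe sets of Zic2, Zic4, Pax6, Barhl2 and En2, and the dimmer one of Neurod1, passed the filter through cerebellum alone and so had to differ. Their adjusted p-values for the tissues, given below, are thus no independent support for a difference. The counts describe the members without testing anything about them as a set. The arrays measured whole tissue, so fewer cells of a type and less RNA per cell cannot be told apart.

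Neurod1 had the largest measured tissue difference of the members. In Q111 mice its lowest, median and highest values were 14.10, 14.16 and 14.33 in cerebellum, against 3.68, 4.91 and 5.33 in striatum. In wild-type mice they were 13.99, 14.38 and 14.44 in cerebellum, against 3.86, 4.21 and 4.91 in striatum. Every cerebellum array lay far above every striatum array, and 3 of the 12 striatum arrays read under 4. The log2 difference was 9.43 in Q111 (SE 0.21, adjusted p = 1.51e-21) and 9.99 in wild type (SE 0.21, adjusted p = 4.95e-22). With values under 4 set to 4, cerebellum was at least 665-fold higher in Q111 and at least 983-fold higher in wild type. The other Neurod1 probe set gave differences of 9.41 and 9.16, with 11 of 12 striatum arrays under 4.

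En2, which marks tissue of midbrain and hindbrain origin, had the next largest measured difference. Its lowest, median and highest values were 10.82, 10.95 and 11.15 in Q111 cerebellum, against 2.89, 2.98 and 3.25 in Q111 striatum. In wild type they were 10.56, 10.80 and 11.11 in cerebellum, against 2.77, 2.91 and 3.49 in striatum. No striatum array reached 4, so En2 in striatum was near background on all 12, and cerebellum was at least 126-fold higher in Q111 and at least 112-fold higher in wild type. The log2 differences were 7.96 (SE 0.11, adjusted p = 4.89e-26) and 7.82 (SE 0.11, adjusted p = 7.14e-26).

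Zic1 was high in cerebellum and was also well above background in striatum. Its lowest, median and highest values were 14.15, 14.30 and 14.38 in Q111 cerebellum, against 7.37, 8.85 and 9.22 in Q111 striatum. In wild type they were 13.78, 14.30 and 14.74 in cerebellum, against 7.68, 8.68 and 9.54 in striatum. The striatum arrays all lay well above background, and the tissues did not overlap. The log2 difference was 5.72 in Q111 (SE 0.27, adjusted p = 2.83e-15) and 5.64 in wild type (SE 0.27, adjusted p = 3.61e-15), which is 52.7-fold and 49.7-fold. The other Zic1 probe set gave 6.04 and 6.00.

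Zic4, the head-to-head neighbour of Zic1, was dimmer in cerebellum and near background in striatum, so its tissue difference has only a lower bound and was not set against that of Zic1. Its brighter probe set had lowest, median and highest values of 5.96, 6.33 and 7.10 in Q111 cerebellum, against 2.54, 2.92 and 3.87 in Q111 striatum. In wild type it had 5.25, 5.93 and 6.47 in cerebellum, against 1.89, 2.63 and 3.45 in striatum. All 12 striatum arrays lay under 4 and all 12 cerebellum arrays above it. The log2 difference was 3.42 in Q111 (SE 0.27, adjusted p = 5.82e-11) and 3.20 in wild type (SE 0.27, adjusted p = 1.86e-10), and with values under 4 set to 4 cerebellum was at least 5.48-fold higher in Q111 and at least 3.77-fold higher in wild type. The other Zic4 probe set was dimmer, with means of 4.51 in Q111 cerebellum and 4.73 in wild-type cerebellum, and differences of 2.01 and 2.17.

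Zic2, which in mice is needed for closure of the neural tube, showed the same tissue order. It had lowest, median and highest values of 6.81, 7.53 and 8.20 in Q111 cerebellum, against 2.88, 3.11 and 3.13 in Q111 striatum. In wild type it had 7.05, 7.85 and 8.24 in cerebellum, against 2.99, 3.30 and 4.03 in striatum. A single striatum array, wild-type array 6, reached 4. The log2 difference was 4.46 in Q111 (SE 0.21, adjusted p = 2.01e-15) and 4.38 in wild type (SE 0.21, adjusted p = 2.76e-15). With values under 4 set to 4, cerebellum was at least 11.5-fold higher in Q111 and at least 13.3-fold higher in wild type.

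The tested Pax6 probe sets were near background in striatum and well above it in cerebellum. The brighter one had lowest, median and highest values of 8.21, 8.51 and 8.76 in Q111 cerebellum, against 2.42, 2.74 and 3.00 in Q111 striatum. In wild type it had 8.11, 8.34 and 8.70 in cerebellum, against 2.70, 3.02 and 3.21 in striatum. Its log2 difference was 5.79 in Q111 (SE 0.12, adjusted p = 2.52e-22) and 5.41 in wild type (SE 0.12, adjusted p = 9.60e-22), and the other tested Pax6 probe set gave 4.82 and 4.73. All striatum values lay under 4, and with these set to 4 cerebellum was at least 23.1-fold higher in Q111 and at least 20.9-fold higher in wild type by the brighter probe set. The 3 Pax6 probe sets left out by the filter averaged under 4 in both tissues. One repeated the direction, with every cerebellum array above every striatum array (lowest 2.57 against highest 2.56). It averaged 3.20 in Q111 cerebellum and 3.24 in wild-type cerebellum, against 2.49 and 2.43 in striatum. The other two averaged 2.11 and 1.82 in Q111 cerebellum, 2.12 and 1.82 in wild-type cerebellum, 2.29 and 1.85 in Q111 striatum, and 2.26 and 1.84 in wild-type striatum. The Pax6 probe sets therefore disagreed in level and in direction, and only 2 of the 5 read well above background in cerebellum.

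The BarH-like factors gave unlike signals on these arrays. Barhl2 had lowest, median and highest values of 7.16, 7.52 and 7.96 in Q111 cerebellum, against 3.61, 3.90 and 4.32 in Q111 striatum. In wild type it had 7.25, 7.92 and 8.10 in cerebellum, against 3.65, 3.89 and 4.34 in striatum. The log2 difference was 3.61 in Q111 (SE 0.15, adjusted p = 2.80e-16) and 3.88 in wild type (SE 0.15, adjusted p = 6.62e-17), and with values under 4 set to 4 cerebellum was at least 11.2-fold and at least 13.5-fold higher. Both Barhl1 probe sets read under 4 on all 24 arrays, with means of 3.47 and 3.402 in Q111 cerebellum, 3.59 and 3.47 in wild-type cerebellum, 3.29 and 2.77 in Q111 striatum, and 3.26 and 2.65 in wild-type striatum. Barhl1 was therefore not measured above background in either tissue, and no fold is given for it. Near background, each Barhl1 probe set still read higher on every cerebellum array than on any striatum array. The lowest cerebellum and highest striatum values were 3.38 and 3.37 for one, and 3.15 and 3.11 for the other.

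**Figure D2:**
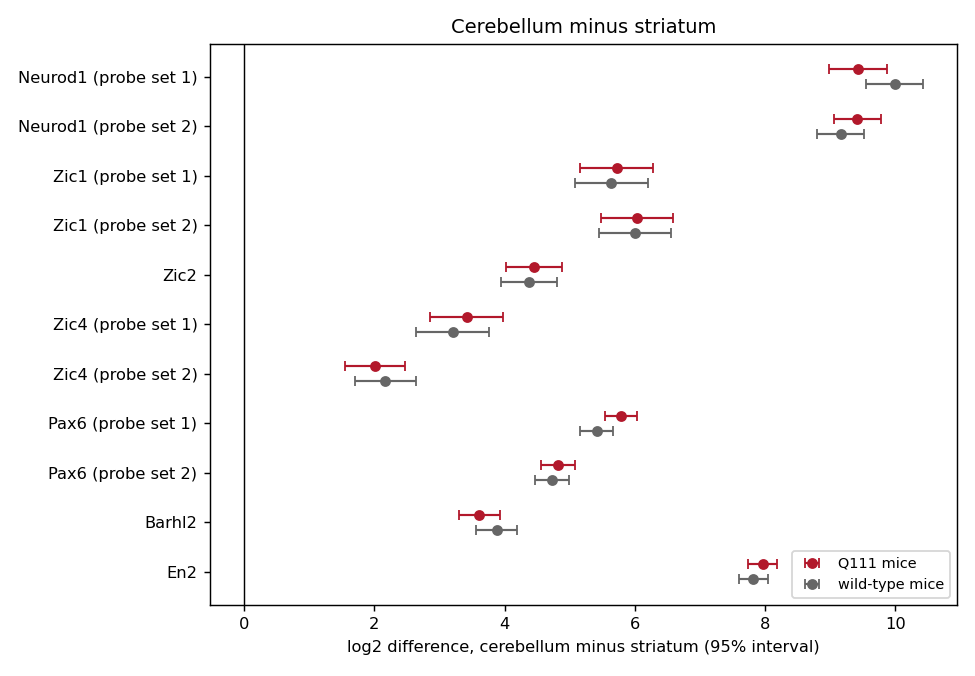
Log2 difference between cerebellum and striatum (x axis) with its 95% interval from the model for the 11 tested probe sets (y axis), in Q111 mice (red) and wild-type mice (grey). All intervals lie above 0, from a difference of 2.01 for the dimmer Zic4 probe set in Q111 to 9.99 for Neurod1 in wild type, and striatum values under 4 enter as measured.

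Relatives and partners of these factors that are no members were called in both directions between the tissues. Over all genes, 41.6% were called higher in wild-type cerebellum than in wild-type striatum and 32.1% lower. Of 13 further genes of the same families, 6 were tested; in wild type 3 were higher in cerebellum and 2 were lower. Zic5, the neighbour of Zic2, was higher by 5.50 (SE 0.17, adjusted p = 8.87e-19 in limma) and Neurod2, a helix-loop-helix factor of glutamatergic neurons, by 3.47, while Neurod6 of cortical projection neurons was lower (log2 difference -2.21) and so was Etv5, an ETS factor close to Etv1 (-1.06). Of 19 other regulators known from granule neurons, 8 were higher and 10 lower, with a median of -0.21 against 0.08 over all genes. The nuclear factor I genes Nfia (2.30), Nfib (2.63) and Nfix (2.07) were higher, and the homeobox gene Meis2 was lower (-8.33). Of 7 granule cell progenitor genes, 3 were higher, among them the Hedgehog receptor gene Ptch1 (1.41), and 4 lower, among them the cyclin gene Ccnd2 (-4.80). Among genes of other cell types, 12 of 14 for Purkinje cells, 12 of 13 for Bergmann glia and astrocytes, 3 of 4 for unipolar brush cells and 7 of 7 for meninges were called higher in cerebellum. Of 9 cerebellar GABAergic interneuron genes 5 were higher and 4 lower, and 11 of 11 oligodendrocyte genes and 10 of 10 microglia genes were lower. A higher value in cerebellum does not by itself place a factor in granule neurons.

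For each tested member, the closest genes over the 24 arrays were those with the smallest root mean square difference after centring, a measure that mostly reflects the size of the tissue difference. They were Cbln1 (0.598 log2 units) and Cnpy1 (0.667) for Neurod1, and Pvalb (0.351) and Tspan4 (0.416) for Zic1. They were Cnksr3 (0.318) and Megf11 (0.325) for Zic2, and Irx3 (0.390) and Aldh1a1 (0.437) for Zic4. They were Skor1 (0.203) and Pde5a (0.264) for Pax6, Gng13 (0.288) and Asph (0.296) for Barhl2, and Ppp1r17 (0.234) and Fat2 (0.382) for En2. Cbln1 and Fat2 are known granule neuron genes, whereas Pvalb, Gng13 and Ppp1r17 are known from Purkinje cells or inhibitory interneurons.

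The comparison of Q111 with wild type in cerebellum asks whether the expanded huntingtin allele changes these factors where they are high. Of the 11 member probe sets, limma called 0, with adjusted p from 0.381 to 0.996; over all tested probe sets 0.458% were called, and 2867 had an unadjusted p under 0.05. The 7 genes had a median log2 difference of -0.01, against -0.05 over all genes, and 3 of them were above 0, against 33.9% of all genes. In every one of the 11 the Q111 and wild-type values overlapped. How often this holds over all probe sets was not counted, so nothing about the members is read from the overlap.

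The largest difference was that of Zic4, whose brighter probe set averaged 6.45 ± 0.51 in Q111 cerebellum and 5.91 ± 0.43 in wild-type cerebellum (SD, n = 6 each). The log2 difference was 0.54 (95% interval -0.02 to 1.10, adjusted p = 0.381 in limma), with 6 of 6 Q111 arrays above the wild-type mean, and it was 0.55 in array numbers 1 to 3 and 0.53 in numbers 4 to 6. These number sets only divide the arrays by replicate number, and the labels used here do not name them as batches. The dimmer Zic4 probe set had the opposite sign, at -0.23 (95% interval -0.69 to 0.24, adjusted p = 0.689). Barhl2 averaged 7.55 ± 0.27 in Q111 cerebellum and 7.85 ± 0.31 in wild-type cerebellum (SD, n = 6 each), a log2 difference of -0.30 (95% interval -0.61 to 0.02, adjusted p = 0.386 in limma), which was -0.54 in numbers 1 to 3 and -0.06 in numbers 4 to 6.

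The remaining factors differed by smaller amounts in cerebellum. En2 averaged 10.98 ± 0.15 in Q111 cerebellum and 10.81 ± 0.18 in wild-type cerebellum (SD, n = 6 each), with a log2 difference of 0.16 (95% interval -0.06 to 0.39, adjusted p = 0.526 in limma) and all 6 Q111 arrays above the wild-type mean. Pax6 had 0.14 (95% interval -0.11 to 0.39), Zic2 -0.22 (-0.65 to 0.21), Neurod1 -0.11 (-0.56 to 0.33) and Zic1 -0.01 (-0.57 to 0.56). For the brightest probe sets of Neurod1 and Zic1 the wild-type arrays were more spread than the Q111 arrays, with SDs of 0.18 and 0.34 in wild type against 0.08 and 0.09 in Q111. The other Zic1 probe set kept this order (0.17 against 0.07), but the other Neurod1 probe set did not (0.25 against 0.27). The 95% intervals of these factors hold changes of either sign, so equal levels were not shown. Of 19 mature granule neuron genes limma also called 0 in this comparison, with a median of 0.06 and 14 above 0, against 33.9% of all genes above 0.

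Some cerebellum arrays held the extreme value of several members. Among wild-type arrays, array 3 had the highest value of 5 of the 7 factors (Neurod1, Zic1, Zic2, Pax6 and En2) and array 2 the lowest of 4 (Zic1, Zic2, Pax6 and En2). Among Q111 arrays, array 6 had the highest value of 4 and array 2 the lowest of 3. The mean log2 value of the 7 factors ranged from 9.76 to 10.08 in Q111 cerebellum and from 9.56 to 10.21 in wild-type cerebellum. The mean log2 value of 19 mature granule neuron genes ranged from 11.23 to 11.48 in Q111 cerebellum and from 11.11 to 11.36 in wild-type cerebellum.

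**Figure D3:**
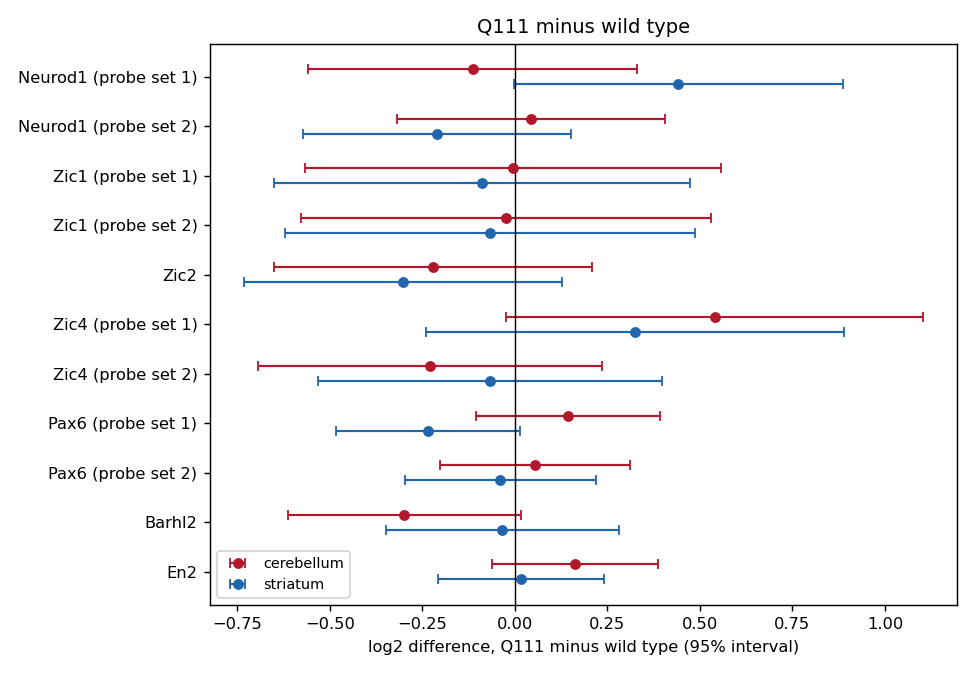
Log2 difference between Q111 and wild type (x axis) with its 95% interval from the model for the 11 tested probe sets (y axis), in cerebellum (red) and striatum (blue). Intervals cross 0 for all 11 in both tissues, and the probe sets of Neurod1 and of Zic4 lie on opposite sides of 0 in striatum and cerebellum alike.

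The comparison in striatum, the tissue with most neuronal loss in Huntington's disease, concerns factors that are near background there apart from Zic1 and, on most arrays, Neurod1. Limma called 0 of the 11 probe sets, with adjusted p from 0.266 to 0.955, while 2.87% of all tested probe sets were called and 3933 had an unadjusted p under 0.05. The median over the 7 genes was -0.03, against -0.03 over all genes. The interaction, which is the genotype difference in cerebellum minus that in striatum, was called by limma for 0 of 11 (against 0.0868% of all probe sets, with 2100 at an unadjusted p under 0.05). The interaction was -0.56 for Neurod1 (SE 0.30, adjusted p = 0.555), 0.38 for Pax6 (SE 0.17, adjusted p = 0.464) and 0.22 for Zic4 (SE 0.39, adjusted p = 0.904). With values under 4 set to 4 it became 0.14 for Pax6 and 0.54 for Zic4, since their striatum values all lay under 4.

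Neurod1 averaged 4.75 ± 0.61 in Q111 striatum and 4.31 ± 0.46 in wild-type striatum (SD, n = 6 each), a log2 difference of 0.44 (95% interval -0.002 to 0.89, adjusted p = 0.266 in limma). This difference rested on part of the arrays. It was 1.08 in numbers 1 to 3, where limma on those arrays alone called it (adjusted p = 0.0112), and -0.19 in numbers 4 to 6 (adjusted p = 0.748). Without Q111 array 4 it was 0.66 (adjusted p = 0.0450 in limma), but that array was the lowest of its group, so leaving it out had to raise the difference. Neither call stands for the full set of arrays, where the difference was not called. The other Neurod1 probe set, under 4 on 11 of the 12 arrays, had -0.21 (adjusted p = 0.562). Genes of cerebral cortex neurons are given beside the brighter probe set. The mean log2 value of 10 such genes ranged from 6.92 to 7.88 in Q111 striatum and from 6.69 to 7.27 in wild-type striatum, and had a Q111 mean above the wild-type mean by 0.61 (numbers 1 to 3) and 0.36 (numbers 4 to 6). In numbers 4 to 6 the cortex difference was thus above 0, whereas that of Neurod1 was below 0 (-0.19). Some other gene lists changed sign between the number sets as Neurod1 did, while others did not. Q111 minus wild type was 0.67 and -0.63 for 9 thalamus and septum genes, and 0.79 and -0.61 for 4 unipolar brush cell genes. It was 0.23 and -0.17 for 19 mature granule neuron genes. These lists all name Calb2, so they are not independent of each other. The change was the other way for 14 striatal projection neuron genes, at -0.47 and 0.17. It kept its sign for 11 oligodendrocyte genes, at -0.16 and -0.27. Q111 array 4 had both the lowest Neurod1 value (3.68) and the lowest cortex value (6.92) of its group, and wild-type array 3 likewise (3.86 and 6.69). Of the 10 cortex genes, 2 were called higher in Q111 striatum, Neurod6 (log2 difference 1.12, adjusted p = 0.00345 in limma) and Fezf2 (0.71, adjusted p = 0.0132), both factors of cortical projection neurons, and 10 were above 0. Over all genes, 0.873% were called higher in this comparison and 42.2% were above 0. The part of cortex tissue in the Neurod1 values was not tested.

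Zic1 had the widest range of the 7 factors over the striatum arrays, 1.85 units in each genotype. It averaged 8.56 ± 0.73 in Q111 striatum and 8.65 ± 0.60 in wild-type striatum (SD, n = 6 each), with a log2 difference of -0.09 (95% interval -0.65 to 0.47, adjusted p = 0.901 in limma). Both Zic1 probe sets gave low values on Q111 array 6 and wild-type array 3 and the highest on wild-type array 6, with 7.37 and 7.17 on Q111 array 6, 7.68 and 7.17 on wild-type array 3, and 9.54 and 9.23 on wild-type array 6. The mean log2 value of 9 thalamus and septum genes, which include Zic5, was 5.28, 5.36 and 7.06 on these arrays, the lowest of the Q111 group and the lowest and highest of the wild-type group. Q111 array 1 did not follow this, with low Zic1 values of 7.99 and 7.75 and a score of 6.31, near the top of its group. The score ranged from 5.28 to 6.51 in Q111 striatum and from 5.36 to 7.06 in wild-type striatum. For numbers 1 to 3, Q111 minus wild type was 0.67 for the score and 0.23 for Zic1. For numbers 4 to 6, it was -0.63 for the score and -0.40 for Zic1. Zic2 and Zic4 also had their highest wild-type striatum value on array 6, at 4.03 and 3.45, though both factors were near background in striatum. In Q111 striatum Zic4 did not follow Zic1, with its highest value on array 1 (3.87), where Zic1 was low. How much of the Zic1 signal came from tissue next to the striatum was not tested.

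**Figure D4:**
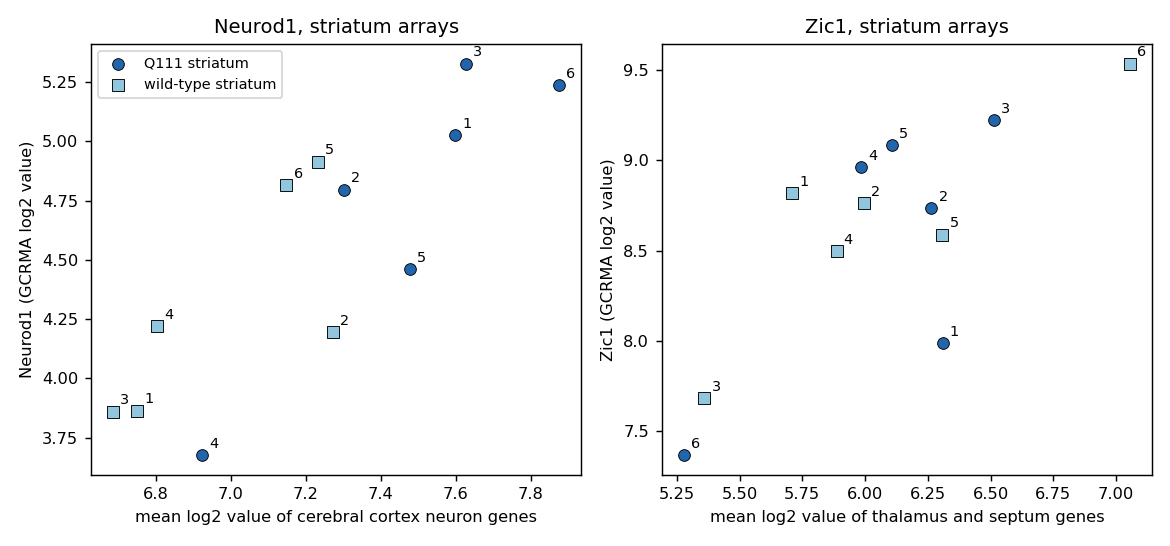
Values on the 12 striatum arrays (Q111 dark circles, wild type light squares, array numbers beside the points): Neurod1 (y axis, log2) against the mean log2 value of cerebral cortex neuron genes (x axis) on the left, and Zic1 against that of thalamus and septum genes on the right. Q111 array 4 and wild-type array 3 are low on both axes on the left, and Q111 array 6, wild-type array 3 and wild-type array 6 are the extremes on the right.

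The other factors in striatum stayed near background in both genotypes. Zic2 had a log2 difference of -0.30 (95% interval -0.73 to 0.13), Pax6 -0.23 (-0.48 to 0.01), Zic4 0.32 (-0.24 to 0.89), Barhl2 -0.03 (-0.35 to 0.28) and En2 0.02 (-0.21 to 0.24). With values under 4 set to 4, the differences of Pax6, Zic4 and En2 became 0 and that of Zic2 -0.00492, so these carry no measured change.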

How the data were processed

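Biotin-labelled targets from Trizol-purified RNA were hybridised to Affymetrix mouse arrays, per the labels' protocols. The values deposited by the authors were made with GCRMA (the submitters' processing notes name it) and were read as log2, since they run from -0.77 to 16.33 and no log base is stated. The GCRMA version, the array scans and the joint normalisation of the tissues are not given in the sources used here. From these values, 64 controls of 45101 probe sets were left out and 20738 probe sets with a mean of at least 4 in cerebellum or striatum were kept. Symbols came from the platform annotation of GEO (34945 probe sets with a single symbol, 932 with several, 9160 with none); 34741 matched the GRCm38.p6 gene table by Entrez identifier with 0 symbols changed.

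All 24 arrays entered 1 limma 3.58.1 model (R 4.3.3) with a mean per group, 20 residual degrees of freedom, 3.22 prior degrees of freedom, and p-values adjusted by Benjamini-Hochberg across all kept probe sets (threshold 0.05). The brightest probe set stood for a gene. Named genes were the members, the 2 closest genes of each, and up to 3 called genes, otherwise up to 2, of each gene list; Etv5, Nfia, Nfib, Nfix and Ptch1 were named after their values were seen. The members and lists were chosen with earlier results of these data known. Same-numbered arrays of the genotypes had residual correlations from -0.42 to 0.12, and those of the tissues within a genotype from -0.0547 to 0.18, so the numbers were not used as pairs. The model was also run on simulated arrays with independent noise for each value. These hold no number-set or dissection structure, so they do not show how well it finds small differences in these arrays. Arrays of a group correlated at 0.994 to 0.998 over probe sets and none were identical; the number of arrays limits the precision. Promoter sequences are RefSeq's.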

Additional observations from a re-analysis of the deposited data

Results flagged for a closer look

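In 5 of 64 combinations of member probe set and group, 1 array of 6 lay apart from the others by Dixon's test at the 95% level; chance gives about 1 in 20. They were the dimmer Neurod1 probe set on Q111 cerebellum array 4 (13.11, next 12.61), the second tested Pax6 probe set on Q111 cerebellum array 2 (7.09, next 7.53), Barhl2 on wild-type cerebellum array 5 (7.25, next 7.87), and 2 Pax6 probe sets near background, on wild-type striatum array 6 (2.19, next 2.43) and Q111 cerebellum array 6 (2.06, next 2.11). The bright Neurod1 probe set read 14.21 on Q111 cerebellum array 4, within the range of its group.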

How the results depend on the processing

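In cerebellum against striatum 11 member probe sets were called in each genotype, 10 with a filter at 6, which left 1 out, and 15 (wild type) and 16 (Q111) of 16 with no filter, all higher in cerebellum except Pax6 probe sets near background, 1 lower in wild type and 2 in Q111. Between the genotypes 0 were called in cerebellum or in the interaction. In striatum 0 member probe sets were called, except 1, Neurod1, with numbers 1 to 3 alone and 1 without Q111 striatum array 4 (0 to 1 over the left-out arrays). Over all probe sets, the 95 calls in cerebellum became 11 with numbers 1 to 3, 18 with numbers 4 to 6, 53 with the replicate block, 49 with a term for number set and 34 to 252 when 1 array was left out. The 595 in striatum became 384 with no filter, 242 and 251 with each number set, 153 with the replicate block, 316 with a term for number set and 219 to 689 when 1 array was left out. The 18 interactions became 7 with a filter at 6, 10 and 30 with each number set, 5 with the replicate block, 6 with a term for number set and 6 to 50 when 1 array was left out. The replicate numbers were not taken as pairs (own number best for 0 of 6 arrays between genotypes in either tissue, 1 of 6 between the tissues in Q111 and 3 of 6 in wild type), and under the block 0 member probe sets were called between the genotypes.

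Some genotype differences changed sign, among them the largest in each tissue (Zic4 in cerebellum, Neurod1 in striatum) and the Neurod1 interaction; none of the turned values was called. In cerebellum these were Neurod1 (0.0435) and Zic4 (-0.23) on their next brightest probe set, and Zic1 after quantile normalisation (0.00268), median centring (0.0938), with numbers 1 to 3 (0.00813) and over left-out arrays (-0.11 to 0.0848). In striatum, the next brightest probe set gave -0.21 for Neurod1 and -0.0678 for Zic4, and numbers 4 to 6 gave -0.19 for Neurod1 and 0.0352 for Barhl2. Numbers 1 to 3 gave -0.21 for En2 and 0.23 for Zic1, median centring gave 0.0158 for Barhl2, and quantile normalisation gave -0.00334 for En2. Left-out arrays gave -0.11 to 0.0388 for Barhl2, -0.0303 to 0.12 for En2 and -0.28 to 0.15 for Zic1. For the interaction, numbers 4 to 6 gave -0.0808 for En2 and 0.17 for Neurod1, numbers 1 to 3 gave -0.22 for Zic1, and the next brightest probe set gave 0.25 for Neurod1 and -0.16 for Zic4. Left-out arrays gave -0.16 to 0.28 for Zic1 and -0.0559 to 0.22 for Zic2, and setting values under 4 to 4 gave -0.22 for Zic2. That setting also lowered the tissue differences to 6.98 and 6.81 for En2, 4.53 and 4.39 for Pax6, 3.52 and 3.73 for Zic2, and 2.45 and 1.91 for Zic4 (Q111, then wild type). Of the calls, 75 of 95 in cerebellum and 422 of 595 in striatum were lower in Q111; after quantile normalisation these were 39 lower with 45 higher and 332 lower with 310 higher, and after median centring 35 with 90 and 247 with 331. The cause was not tested. Values near background limit Zic2, Zic4, Pax6, Barhl2 and En2 in striatum and Barhl1 in both tissues.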
